A study of Mus musculus with 12 samples.

Results

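Described here are 47 mouse genes of mitosis and the G2/M transition, the step at which a cell that has copied its DNA enters division. They were taken by symbol from a list of genes known for these steps, and all 47 were found among the 23740 named genes measured in splenic CD4 T cells. The samples filled 12 whole-transcript arrays, Mouse Gene 2.0 ST, in 4 groups of 3 numbered arrays. Activated Lck-Cre+;Ikzf-/- and activated Lck-Cre-;Ikzf+/+ cells had spent 24 h on plate-bound antibody to CD3 with antibody to CD28 in solution, and the baseline groups of both genotypes (0 h) had no such treatment. Hereafter the genotypes are called Cre+ and Cre-. Cre recombinase was driven by the promoter of Lck, a kinase gene of the T lineage, and neither the age of the animals nor whether each array held RNA of its own animal is given by the labels. The p-values therefore measure the spread between these samples, which may be partly technical. No group carried Cre with intact Ikaros, and none was cultured for 24 h without the antibodies, so the effects of Cre and of culture cannot be told apart from those of the deletion and of the antibodies.

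Entry into mitosis is driven by CDK1 bound to A- and B-type cyclins, which CDC25 phosphatases switch on and which polo and Aurora kinases help to amplify. Kinetochores then tie the chromosomes to spindle microtubules, the spindle checkpoint holds the anaphase-promoting complex in check until every chromosome is attached, and destruction of securin and of the cyclins lets sister chromatids part and the cell divide. Transcription of these genes is low in resting T cells and peaks in G2 and mitosis, under B-MYB, FOXM1 and the MuvB proteins, so their RNA in a culture of stimulated T cells is commonly read as a sign of cells that have left rest and reached division.

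The promoters of these genes are known for a pair of short elements, the cell cycle genes homology region (CHR), a contact of MuvB complexes, and the CCAAT box, bound by NF-Y. The printed stretches are RefSeq promoters of genome build GRCm38.p6, each 300 bases long, with 250 bases before and 50 after the annotated start, written 5′ to 3′ along the gene's strand. Capitals mark CHR motifs, searched as TTTGAA or TTCGAA on either strand, and CCAAT on either strand, and no 2 motifs overlapped in the promoters shown. Cyclin B1, cyclin B2, CDK1, CDC20 and PLK1 are shown as central parts of mitotic entry and exit, and securin (Pttg1) because its level went another way, a choice made after its values were seen. The Ccnb1 promoter lay at chr13:100786437-100786736 on the minus strand, that of Ccnb2 at chr9:70421505-70421804 on the minus strand and that of Cdk1 at chr10:69352863-69353162 on the minus strand. Those of Cdc20, Plk1 and Pttg1 lay at chr4:118437294-118437593 on the minus strand, at chr7:122159185-122159484 on the plus strand and at chr11:43425932-43426231 on the minus strand.
Ccnb1: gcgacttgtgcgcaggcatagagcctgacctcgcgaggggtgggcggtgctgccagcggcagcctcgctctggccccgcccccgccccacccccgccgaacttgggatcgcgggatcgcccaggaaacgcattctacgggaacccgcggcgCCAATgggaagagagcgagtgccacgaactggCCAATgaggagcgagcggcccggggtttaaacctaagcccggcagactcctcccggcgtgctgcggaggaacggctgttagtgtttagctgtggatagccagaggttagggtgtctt
Ccnb2: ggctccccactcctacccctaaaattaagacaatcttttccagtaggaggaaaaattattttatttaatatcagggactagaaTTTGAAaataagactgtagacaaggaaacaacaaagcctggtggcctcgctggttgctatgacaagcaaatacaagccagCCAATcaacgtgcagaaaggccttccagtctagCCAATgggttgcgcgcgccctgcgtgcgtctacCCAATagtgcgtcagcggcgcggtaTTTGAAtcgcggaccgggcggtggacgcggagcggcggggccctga
Cdk1: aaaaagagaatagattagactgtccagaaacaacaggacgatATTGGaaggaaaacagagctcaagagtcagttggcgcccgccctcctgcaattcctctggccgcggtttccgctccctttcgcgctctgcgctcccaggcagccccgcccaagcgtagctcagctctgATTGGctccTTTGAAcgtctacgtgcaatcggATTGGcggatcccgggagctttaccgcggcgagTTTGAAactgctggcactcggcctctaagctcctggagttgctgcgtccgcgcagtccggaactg
Cdc20: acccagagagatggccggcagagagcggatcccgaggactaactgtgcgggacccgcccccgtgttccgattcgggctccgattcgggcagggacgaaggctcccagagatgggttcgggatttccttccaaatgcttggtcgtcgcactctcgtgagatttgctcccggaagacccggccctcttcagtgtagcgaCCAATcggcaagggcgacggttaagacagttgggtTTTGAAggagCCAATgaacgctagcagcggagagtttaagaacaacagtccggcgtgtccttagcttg
Plk1: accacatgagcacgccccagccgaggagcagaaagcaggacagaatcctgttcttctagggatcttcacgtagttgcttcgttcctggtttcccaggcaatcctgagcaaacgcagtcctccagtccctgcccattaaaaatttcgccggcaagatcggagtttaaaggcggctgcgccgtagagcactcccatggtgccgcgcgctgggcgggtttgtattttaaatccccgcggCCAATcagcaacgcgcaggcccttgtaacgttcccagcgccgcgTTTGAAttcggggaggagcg
Pttg1: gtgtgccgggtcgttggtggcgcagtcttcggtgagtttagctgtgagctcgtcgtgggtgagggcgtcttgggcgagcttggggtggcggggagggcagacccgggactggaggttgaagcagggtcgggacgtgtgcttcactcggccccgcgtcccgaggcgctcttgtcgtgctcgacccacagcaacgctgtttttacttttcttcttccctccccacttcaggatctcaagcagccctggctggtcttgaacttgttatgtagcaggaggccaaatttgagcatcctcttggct
The Cdk1 and Ccnb2 promoters each held 2 CHR and 3 CCAAT motifs, Cdc20 held 1 and 2, and Plk1 held 1 of each. Ccnb1 held 2 CCAAT motifs and no CHR, and the Pttg1 stretch held neither.

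RefSeq promoters were matched for 38 of the 47 genes, 40 promoters in all because Ect2 and Prc1 had 2 starts each. A CHR motif was found in 30 of the 40 (75%), against 6316 of 32851 promoters of all genes (19.2%). CCAAT was found in 29 (72.5%), against 37.4% of all promoters, and both motifs in 27 (67.5%), against 7.52%. The CHR motifs clustered at the start, with a motif beginning within 50 bases of it in 28 of the 40 promoters (70%) and in 5.31% of all promoters, a window chosen after the positions were seen. The plot of motif positions shows CCAAT boxes mostly just upstream of the CHR, at a median of -67 bases against -5 bases. Birc5, Mad2l1, Melk, Mybl2, Ncaph, Nuf2, Nusap1 and Pttg1 held neither motif in these windows. A match describes the letters only, and Cdc25b and Cenpa, whose RNA did not lie above baseline on activated array 3 of either genotype, held both motifs. Promoters of Ccna2, Cdc25c, Foxm1, Aurkb, Incenp, Spc24, Kif20a, Tpx2 and Smc4 were not analysed here.

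**Figure D1:**
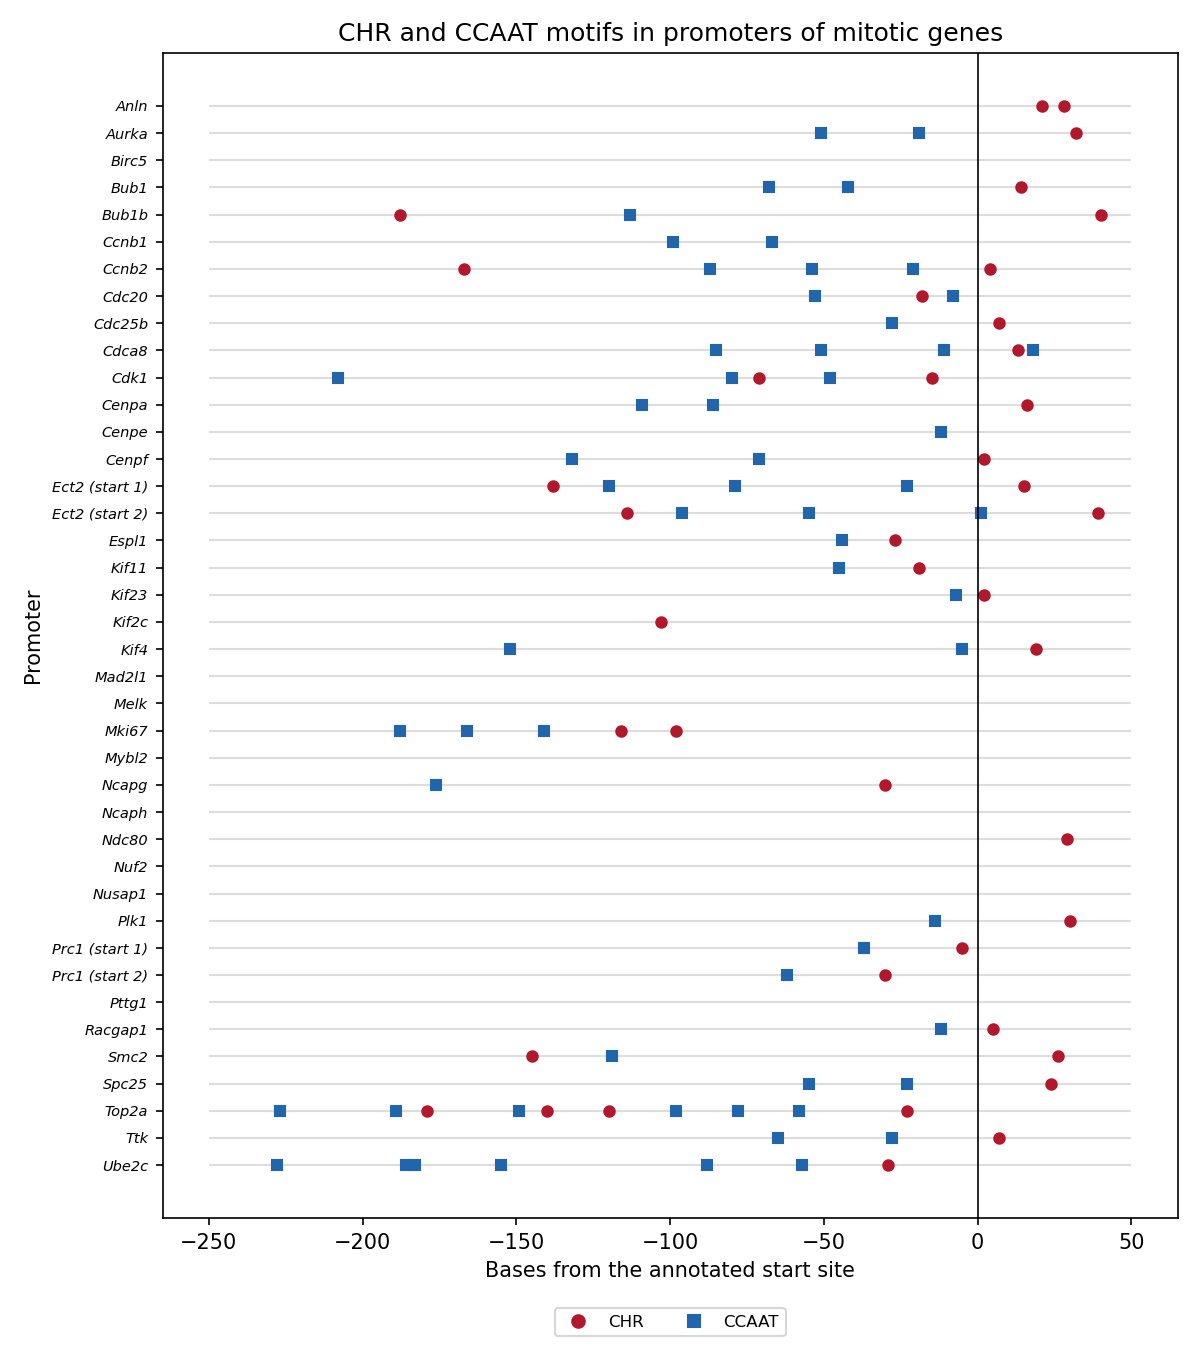
Positions of CHR motifs (red circles) and CCAAT motifs (blue squares) in 40 promoters of mitotic genes, in bases from the annotated start site (vertical line, 0). Each grey line is 1 promoter of 300 bases. Most CHR motifs lie within 50 bases of the start, with CCAAT motifs upstream of them.

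The values are log2 expression as the authors deposited them, and a difference of 1 is a 2-fold change. Array medians over all probe sets ran from 4.04 to 4.17, and arrays of a group correlated at 0.992 to 0.993 at baseline and at 0.972 to 0.994 after activation. Ikzf1, the deleted gene, read 10.14, 9.93 and 9.89 in activated Cre+ and 10.03, 10.22 and 10.08 in activated Cre- cells, against 10.66, 10.29 and 10.13 in Cre+ baseline and 10.54, 10.52 and 10.54 in Cre- baseline cells. Neither genotype difference passed (limma adjusted p = 0.994 after activation and 0.972 at baseline). The labels name neither the deleted exons nor the position of the probes, so this level does not check the genotypes. The 7 CD4 T cell markers averaged 9.84 to 10.24 on activated and 10.38 to 10.59 on baseline arrays. Markers of B cells were also high at baseline: 12 of 12 were measured, and their mean ran from 7.64 to 8.0 on baseline arrays. On activated arrays their mean ran from 4.57 to 6.24, and some lay below the array medians there, such as Cr2 (3.24 to 3.66). In bulk samples, fewer cells of a type and less RNA per cell cannot be told apart.

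As a set, the mitotic genes were high on the array numbered 3 of each activated group and near baseline on the others. Their mean log2 level was 5.84, 5.37 and 7.32 in activated Cre+ cells and 5.37, 5.36 and 7.76 in activated Cre- cells, against 5.49, 5.71 and 5.65 in Cre+ baseline and 5.62, 5.66 and 5.52 in Cre- baseline cells. As group means this is 6.18 ± 1.02 in activated Cre+ and 6.16 ± 1.38 in activated Cre- cells, against 5.62 ± 0.11 in Cre+ baseline and 5.60 ± 0.08 in Cre- baseline cells (SD, n = 3 each). Activated Cre+ array 1 lay slightly above baseline, and the other activated arrays numbered 1 and 2 lay slightly below it. Median SD within a group over the 47 genes was 1.11 in activated Cre+ and 1.52 in activated Cre- cells, against 0.144 in Cre+ baseline and 0.142 in Cre- baseline cells. For all genes tested the same medians were 0.172, 0.177, 0.128 and 0.134.

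**Figure D2:**
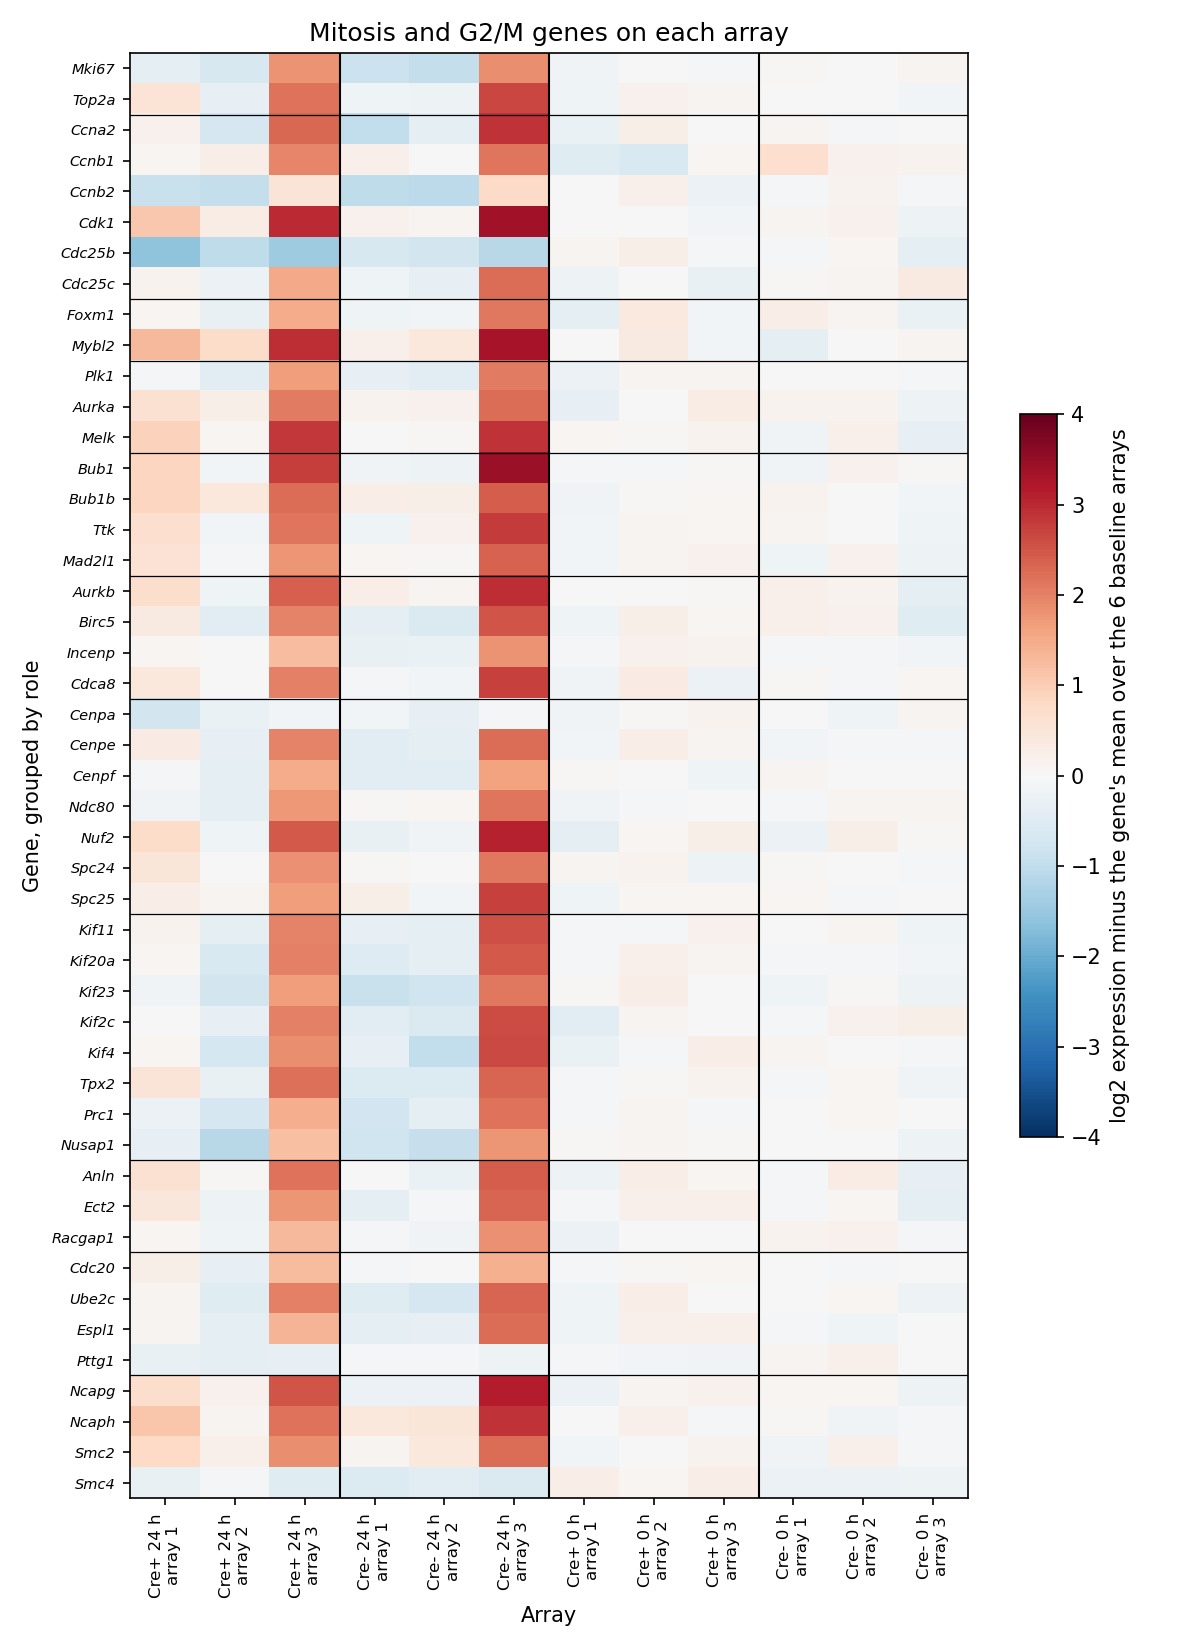
Heat map of the 47 mitotic genes (rows, grouped by role, with lines between roles) on the 12 arrays (columns). Colour is log2 expression minus the gene's mean over the 6 baseline arrays. The columns of activated array 3 are red in both genotypes except for a few rows, among them Cdc25b, Pttg1, Smc4 and Cenpa, and activated arrays 1 and 2 are pale or blue, with Cre+ array 1 pale red for some genes.

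Set against the baseline mean of its own genotype, the median of the 47 genes differed by 0.24, -0.25 and 1.88 on activated Cre+ arrays 1, 2 and 3 and by -0.22, -0.21 and 2.35 on activated Cre- arrays 1, 2 and 3, on the log2 scale. Over all genes tested the 6 medians lay between -0.05 and 0.03. At least 2-fold higher were 3, 0 and 42 of the 47 on the Cre+ arrays (of all genes tested, 4.82%, 2.25% and 6.44%), and 0, 0 and 42 on the Cre- arrays (2.09%, 2.53% and 7.8%). The array numbered 3 was the highest of its 3 for 44 of 47 genes in both activated groups, against 35.5% of all genes in Cre+ and 37.3% in Cre- cells. On it, 43 of 47 genes lay above all 3 baseline arrays of their genotype in Cre+ as in Cre- cells (33.2% of all genes in both). Below them lay 3 in each (37.4% of all genes in Cre+ and 37.7% in Cre- cells). On Cre+ array 1, 25 lay above (30.8%) and 9 below (38.5%), and on Cre+ array 2, 6 lay above (33%) and 27 below (32%). Cre- array 1 had 5 above (35.9%) and 25 below (28.6%), and Cre- array 2 had 6 above (30.7%) and 30 below (34%). No test was run on single arrays.

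Several other readings differed along with array 3, and their part in the pattern was not tested. B cell markers averaged 5.67, 5.07 and 6.24 in activated Cre+ cells and 4.57, 4.94 and 5.66 in activated Cre- cells, against 7.64, 7.72 and 7.65 in Cre+ baseline and 8.0, 7.82 and 7.82 in Cre- baseline cells, so that among activated arrays Cre+ arrays 3 and 1 and Cre- array 3 were the highest. Every activated array lay below every baseline array in this mean. The CD4 markers were lowest on array 3 of both activated groups. T cell activation markers, such as Il2ra, Cd69 and Myc, did not separate the arrays in their mean level. It was 10.11, 10.07 and 10.01 in activated Cre+ cells and 9.97, 10.01 and 10.05 in activated Cre- cells. At baseline it was 7.99, 8.09 and 8.04 in Cre+ and 7.78, 7.88 and 7.72 in Cre- cells. Single markers did differ on array 3, in both directions. It was the highest array for 3 of the 10 in Cre+ and 4 in Cre- cells, and the lowest for 6 in each. Tfrc stood at 8.59, 8.37 and 9.43 in activated Cre+ and 8.42, 8.44 and 9.99 in activated Cre- cells. Nr4a1 stood at 10.67, 10.76 and 10.03 in activated Cre+ and 10.70, 10.56 and 9.93 in activated Cre- cells. Sex did not separate array 3 from the others. Xist, an RNA of female cells, stood at 2.87, 10.23 and 3.41 on activated Cre+ arrays 1, 2 and 3 and at 3.24, 10.01 and 9.90 on activated Cre- arrays 1, 2 and 3, low on one array 3 and high on the other.

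**Figure D3:**
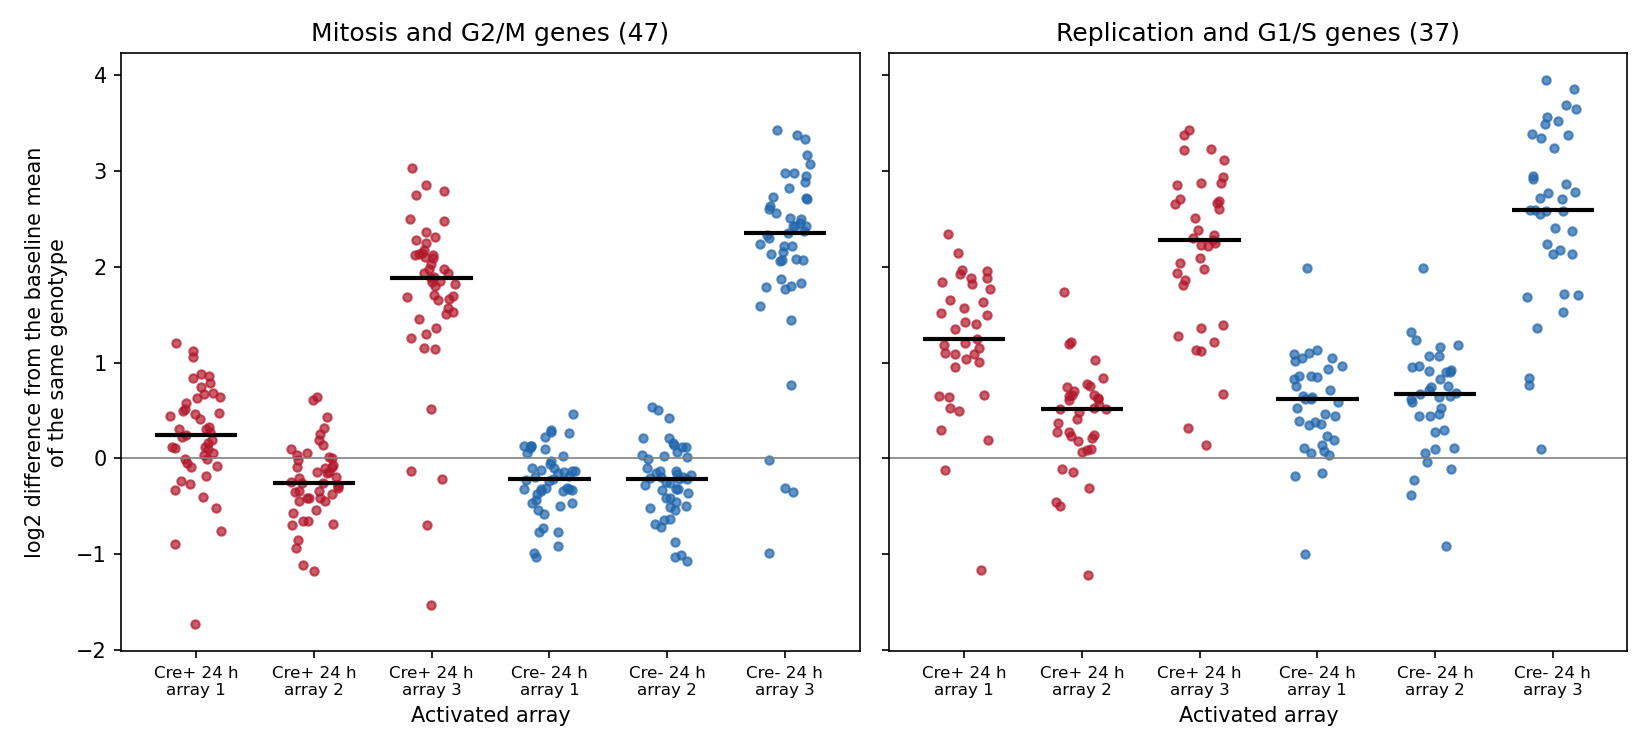
Difference of each gene (points) on each activated array from the mean of the 3 baseline arrays of the same genotype, on the log2 scale, for the 47 mitotic genes (left) and 37 replication and G1/S genes (right). Black bars are medians. Medians of the mitotic genes are 0.24, -0.25 and 1.88 in Cre+ and -0.22, -0.21 and 2.35 in Cre- cells, while those of the replication genes are above 0 on all 6 arrays.

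Among the proliferation markers, Mki67, the gene of the Ki-67 protein that coats mitotic chromosomes, showed both sides of the pattern. Mki67 stood at 7.42, 7.17 and 9.60 in activated Cre+ cells and 6.94, 6.85 and 9.65 in activated Cre- cells, against 7.66, 7.82 and 7.76 in Cre+ baseline and 7.85, 7.81 and 7.90 in Cre- baseline cells. Array 3 was far above every baseline array in both genotypes, and arrays 1 and 2 were below every baseline array. Top2a stood at 7.69, 6.83 and 9.32 in activated Cre+ cells and 6.99, 6.95 and 9.83 in activated Cre- cells, against 6.99, 7.34 and 7.27 in Cre+ baseline and 7.14, 7.14 and 7.06 in Cre- baseline cells. Top2a, the topoisomerase that untangles sister DNA, was thus also highest on array 3, with Cre+ array 1 above and Cre+ array 2 below all of its baseline arrays.

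The cyclin and CDK1 genes differed from each other in where arrays 1 and 2 fell. Cdk1 stood at 6.23, 5.43 and 8.14 in activated Cre+ cells and 5.31, 5.24 and 8.52 in activated Cre- cells, against 5.12, 5.16 and 5.04 in Cre+ baseline and 5.27, 5.33 and 4.95 in Cre- baseline cells. All 3 activated Cre+ arrays of this kinase gene were above all 3 Cre+ baseline arrays, while Cre- arrays 1 and 2 lay within the Cre- baseline range. Ccnb2 stood at 5.02, 4.98 and 6.43 in activated Cre+ cells and 4.90, 4.86 and 6.70 in activated Cre- cells, against 5.91, 6.13 and 5.69 in Cre+ baseline and 5.85, 6.07 and 5.86 in Cre- baseline cells. For this B-type cyclin gene arrays 1 and 2 of both genotypes were below every baseline array, and array 3 was 0.52 above the baseline mean in Cre+ and 0.77 in Cre- cells. Ccna2, the A-type cyclin, was 2.31 and 2.88 above the Cre+ and Cre- baseline on array 3. Ccnb1 stood at 4.89, 5.09 and 6.76 in activated Cre+ cells and 5.02, 4.84 and 6.95 in activated Cre- cells, against 4.33, 4.20 and 4.90 in Cre+ baseline and 5.50, 5.0 and 4.97 in Cre- baseline cells. For this other B-type cyclin gene the Cre+ baseline arrays lay below the Cre- baseline arrays, as they did for 7.43% of all genes. That difference did not pass (-0.68, SE 0.56, limma adjusted p = 0.986). Array 3 was the highest for Ccnb1 in both activated groups. Cdc25c stood at 3.41, 3.03 and 4.80 in activated Cre+ cells and 3.11, 2.94 and 5.51 in activated Cre- cells, against 3.09, 3.25 and 2.97 in Cre+ baseline and 3.31, 3.39 and 3.64 in Cre- baseline cells. Cdc25c, a phosphatase that activates CDK1, was highest on array 3, its Cre- arrays 1 and 2 lay below all Cre- baseline arrays, and its Cre+ baseline arrays lay below its Cre- baseline arrays.

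Of the transcription factor genes, Mybl2, which encodes B-MYB, had the largest mean activation difference of all 47. Mybl2 stood at 7.0, 6.44 and 8.65 in activated Cre+ cells and 5.92, 6.12 and 8.99 in activated Cre- cells, against 5.71, 6.07 and 5.61 in Cre+ baseline and 5.31, 5.72 and 5.83 in Cre- baseline cells. The activated arrays lay above all baseline arrays in both genotypes, by 0.64 to 2.85 in Cre+ and by 0.30 to 3.37 in Cre- cells against the baseline mean. Foxm1 stood at 5.24, 4.89 and 6.64 in activated Cre+ cells and 5.01, 5.07 and 7.28 in activated Cre- cells, against 4.78, 5.56 and 5.07 in Cre+ baseline and 5.45, 5.27 and 4.89 in Cre- baseline cells. Foxm1, a driver of G2/M genes, was high on array 3 only, and its other activated arrays were within the baseline range.

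Mitotic kinase genes were highest on array 3 in every case. Melk stood at 5.55, 4.69 and 7.46 in activated Cre+ cells and 4.63, 4.65 and 7.51 in activated Cre- cells, against 4.70, 4.67 and 4.76 in Cre+ baseline and 4.49, 4.81 and 4.30 in Cre- baseline cells. Plk1 stood at 6.36, 6.03 and 8.13 in activated Cre+ cells and 6.12, 5.99 and 8.51 in activated Cre- cells, against 6.22, 6.56 and 6.55 in Cre+ baseline and 6.46, 6.47 and 6.41 in Cre- baseline cells. Melk, a kinase gene of dividing cells, was near baseline on the other activated arrays except Cre+ array 1. Plk1, the polo kinase of centrosome maturation and mitotic entry, was below the baseline arrays of its genotype on both other Cre- arrays and on Cre+ array 2. Aurka, the Aurora kinase of the spindle poles, was 2.09 above baseline on Cre+ and 2.21 on Cre- array 3.

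All 4 spindle checkpoint genes were highest on array 3. Bub1 stood at 5.20, 4.24 and 7.12 in activated Cre+ cells and 4.23, 4.14 and 7.81 in activated Cre- cells, against 4.28, 4.31 and 4.39 in Cre+ baseline and 4.23, 4.54 and 4.39 in Cre- baseline cells. Bub1, a checkpoint kinase at kinetochores, was 3.42 log2 units above baseline on Cre- array 3, the largest single value of any of the 47 genes on any activated array. Bub1b stood at 5.69, 5.26 and 7.07 in activated Cre+ cells and 5.10, 5.06 and 7.27 in activated Cre- cells, against 4.69, 4.88 and 4.91 in Cre+ baseline and 4.97, 4.84 and 4.72 in Cre- baseline cells. Bub1b, which encodes the checkpoint inhibitor BUBR1, was above baseline on all 6 activated arrays. Mad2l1 stood at 7.29, 6.63 and 8.47 in activated Cre+ cells and 6.79, 6.78 and 9.09 in activated Cre- cells, against 6.60, 6.83 and 6.90 in Cre+ baseline and 6.56, 6.89 and 6.53 in Cre- baseline cells. Mad2l1 encodes MAD2, which blocks CDC20, and Ttk the checkpoint kinase MPS1, which was 2.10 and 2.82 above the Cre+ and Cre- baseline on array 3.

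The chromosomal passenger complex corrects faulty attachments and is made of the Aurora B kinase, INCENP, survivin (Birc5) and borealin (Cdca8). Aurkb stood at 6.17, 5.30 and 7.85 in activated Cre+ cells and 5.73, 5.59 and 8.43 in activated Cre- cells, against 5.46, 5.50 and 5.54 in Cre+ baseline and 5.68, 5.61 and 5.07 in Cre- baseline cells. Incenp stood at 6.05, 5.96 and 7.20 in activated Cre+ cells and 5.66, 5.69 and 7.75 in activated Cre- cells, against 5.92, 6.12 and 6.11 in Cre+ baseline and 5.88, 5.93 and 5.85 in Cre- baseline cells. Aurkb lay farthest above baseline and the scaffold gene Incenp least far of the 4 on array 3, where they spanned 1.15 to 2.36 in Cre+ and 1.87 to 2.98 in Cre- cells. Cre- arrays 1 and 2 of Incenp lay below all Cre- baseline arrays.

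Kinetochore genes lay above baseline on array 3. The centromeric histone gene did not, though array 3 was the highest activated array for it in both genotypes. Nuf2 stood at 6.27, 5.38 and 8.0 in activated Cre+ cells and 5.25, 5.39 and 8.63 in activated Cre- cells, against 5.18, 5.63 and 5.76 in Cre+ baseline and 5.31, 5.79 and 5.59 in Cre- baseline cells. Nuf2, Ndc80, Spc24 and Spc25 form the NDC80 complex, which grips microtubules, and the other 3 were 1.66 to 1.82 above baseline on Cre+ array 3 and 2.07 to 2.72 on Cre- array 3. Cenpa stood at 6.09, 6.56 and 6.71 in activated Cre+ cells and 6.71, 6.49 and 6.79 in activated Cre- cells, against 6.70, 6.86 and 6.97 in Cre+ baseline and 6.82, 6.66 and 6.95 in Cre- baseline cells. Cenpa encodes the histone variant that marks centromeres, and both of its array 3 values lay within the baseline range of their genotype. The motor gene Cenpe and the kinetochore gene Cenpf were 1.90 and 1.52 above baseline on Cre+ array 3 and 2.33 and 1.58 on Cre- array 3. Cenpf stood at 4.13, 3.84 and 5.70 in activated Cre+ cells and 3.79, 3.76 and 5.84 in activated Cre- cells, against 4.25, 4.23 and 4.06 in Cre+ baseline and 4.34, 4.22 and 4.21 in Cre- baseline cells. On arrays 1 and 2 Cenpf lay below all baseline arrays of its genotype, except on Cre+ array 1.

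Spindle motors and microtubule binders, 8 genes, were 1.14 to 2.17 above baseline on Cre+ array 3 and 1.83 to 2.63 on Cre- array 3. Tpx2 stood at 6.45, 5.62 and 8.14 in activated Cre+ cells and 5.39, 5.37 and 8.26 in activated Cre- cells, against 5.86, 5.96 and 6.08 in Cre+ baseline and 5.86, 6.0 and 5.80 in Cre- baseline cells. Tpx2, which activates Aurora A on the spindle, was below baseline on Cre- arrays 1 and 2 and above it on Cre+ array 1. Nusap1 stood at 5.50, 4.73 and 7.04 in activated Cre+ cells and 5.05, 4.91 and 7.61 in activated Cre- cells, against 5.88, 5.94 and 5.89 in Cre+ baseline and 5.85, 5.85 and 5.65 in Cre- baseline cells. Nusap1, a binder of spindle microtubules, was below every baseline array on arrays 1 and 2 of both genotypes. Kif11, the motor that pushes the poles apart, had 1.97 and 2.61 on Cre+ and Cre- array 3, and the chromokinesin gene Kif4 had 1.88 and 2.63. The midzone genes Prc1, Kif20a and Kif23 and the microtubule depolymerase gene Kif2c lay between 1.46 and 2.14 in Cre+ and between 2.15 and 2.51 in Cre- cells. Kif23 stood at 5.26, 4.67 and 7.10 in activated Cre+ cells and 4.54, 4.62 and 7.52 in activated Cre- cells, against 5.47, 5.68 and 5.43 in Cre+ baseline and 5.24, 5.47 and 5.21 in Cre- baseline cells. Prc1 stood at 5.12, 4.70 and 6.80 in activated Cre+ cells and 4.61, 4.97 and 7.53 in activated Cre- cells, against 5.28, 5.48 and 5.28 in Cre+ baseline and 5.35, 5.44 and 5.36 in Cre- baseline cells. Kif23, a motor of centralspindlin, and Prc1, which bundles midzone microtubules, were both below every baseline array of their genotype on arrays 1 and 2. Kif2c stood at 5.07, 4.76 and 7.10 in activated Cre+ cells and 4.62, 4.49 and 7.71 in activated Cre- cells, against 4.63, 5.18 and 5.07 in Cre+ baseline and 5.04, 5.26 and 5.32 in Cre- baseline cells. Kif2c was below its baseline arrays on Cre- arrays 1 and 2 and within their range on Cre+ arrays 1 and 2.

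Cytokinesis genes showed the same split. Anln stood at 5.06, 4.48 and 6.62 in activated Cre+ cells and 4.42, 4.18 and 6.85 in activated Cre- cells, against 4.22, 4.69 and 4.51 in Cre+ baseline and 4.35, 4.73 and 4.10 in Cre- baseline cells. Racgap1 stood at 5.74, 5.48 and 6.93 in activated Cre+ cells and 5.58, 5.52 and 7.49 in activated Cre- cells, against 5.40, 5.66 and 5.67 in Cre+ baseline and 5.78, 5.82 and 5.56 in Cre- baseline cells. Anln encodes the cortical scaffold anillin and Racgap1 a part of centralspindlin, and array 3 was their highest in both genotypes. Ect2, the exchange factor that switches on RhoA at the cleavage site, was 1.66 and 2.43 above the Cre+ and Cre- baseline there.

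Genes of sister separation did not all follow array 3. Ube2c stood at 6.67, 6.08 and 8.60 in activated Cre+ cells and 6.08, 5.90 and 8.89 in activated Cre- cells, against 6.40, 6.85 and 6.60 in Cre+ baseline and 6.60, 6.67 and 6.36 in Cre- baseline cells. Ube2c, the ubiquitin-conjugating enzyme of the anaphase-promoting complex, was high on array 3 only. Pttg1 stood at 5.75, 5.69 and 5.73 in activated Cre+ cells and 5.97, 6.0 and 5.85 in activated Cre- cells, against 5.98, 5.94 and 5.91 in Cre+ baseline and 6.16, 6.27 and 6.04 in Cre- baseline cells. Pttg1, the gene of securin, was below all baseline arrays of its genotype on all 3 activated arrays in both genotypes, with activation differences of -0.22 (SE 0.09, limma adjusted p = 0.133) in Cre+ and -0.21 (SE 0.09, limma adjusted p = 0.151) in Cre- cells that did not pass. Cdc20, the activator of the complex, was 1.25 and 1.44 above the Cre+ and Cre- baseline on array 3, and separase (Espl1) 1.29 and 2.30.

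Condensin, which compacts mitotic chromosomes, was divided as well. Ncaph stood at 6.35, 5.36 and 7.42 in activated Cre+ cells and 5.66, 5.73 and 8.14 in activated Cre- cells, against 5.24, 5.45 and 5.20 in Cre+ baseline and 5.31, 5.11 and 5.19 in Cre- baseline cells. Smc4 stood at 9.85, 10.11 and 9.67 in activated Cre+ cells and 9.61, 9.73 and 9.59 in activated Cre- cells, against 10.42, 10.24 and 10.43 in Cre+ baseline and 9.93, 9.92 and 9.96 in Cre- baseline cells. Ncaph, a regulatory subunit, was highest on array 3, as were Ncapg (2.49 above baseline in Cre+ and 3.17 in Cre- cells) and the ATPase gene Smc2 (1.83 and 2.23). Smc4 encodes the partner ATPase, and its activated arrays lay below all baseline arrays of their genotype.

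The CDC25 phosphatases differed from each other, since Cdc25b did not follow Cdc25c. Cdc25b stood at 5.33, 5.95 and 5.53 in activated Cre+ cells and 6.31, 6.21 and 5.85 in activated Cre- cells, against 7.07, 7.20 and 6.92 in Cre+ baseline and 6.92, 7.03 and 6.57 in Cre- baseline cells. Cdc25b, which acts early in mitotic entry, was below all baseline arrays on every activated array, and array 3 was not its highest in either genotype. Cdc25b, Pttg1 and Smc4 were the 3 genes that array 3 did not lead in either activated group.

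**Figure D4:**
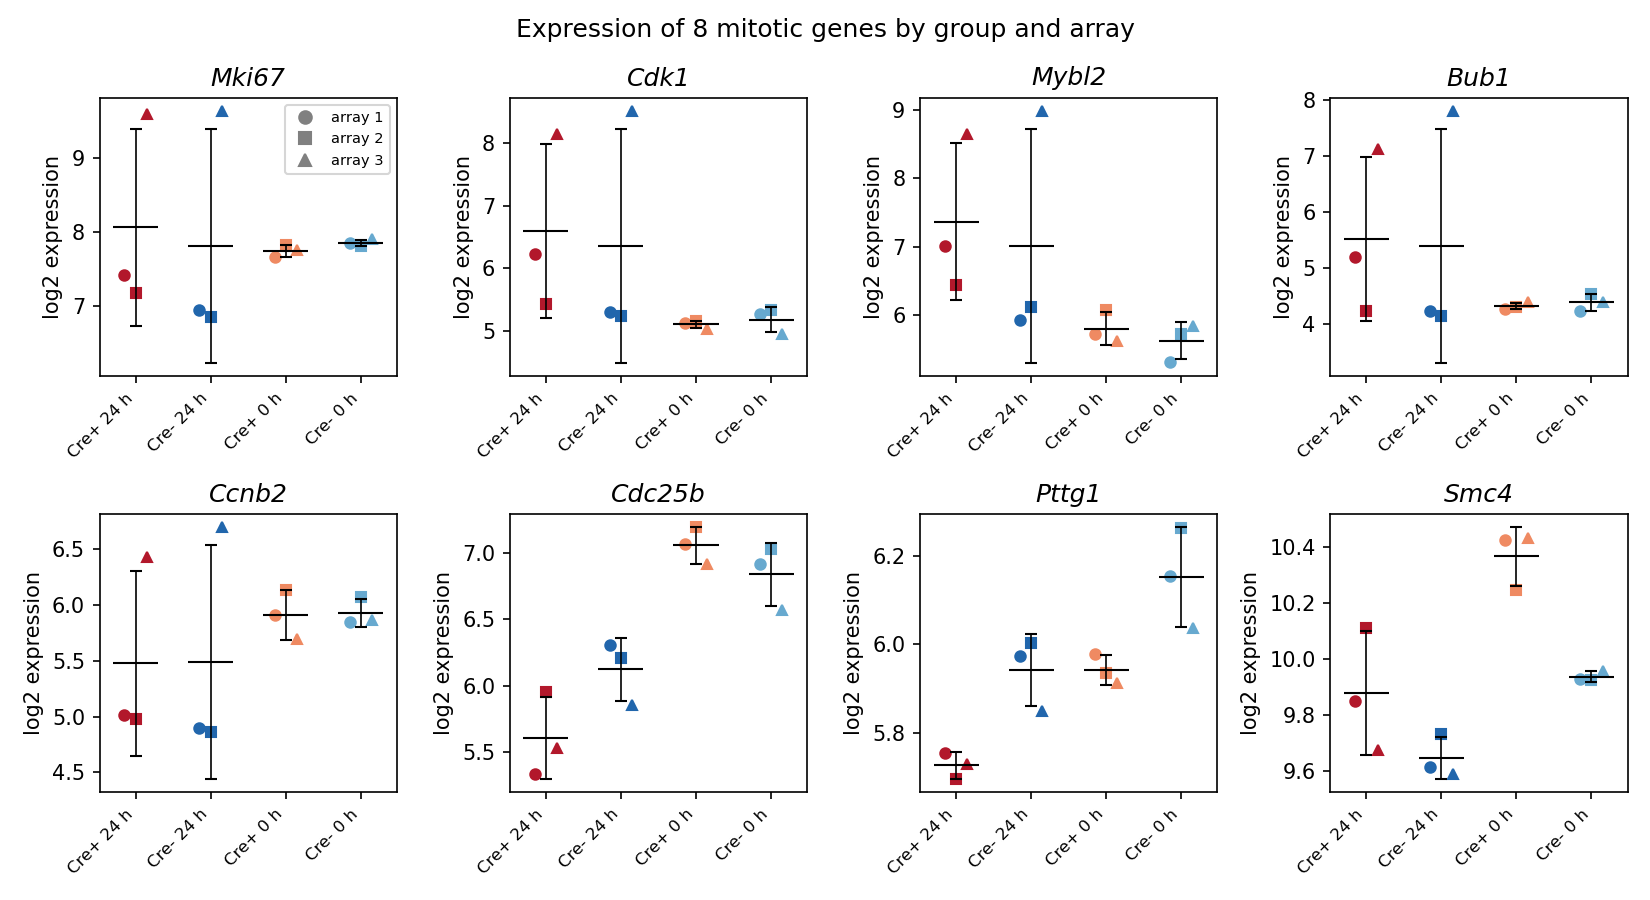
Log2 expression of 8 mitotic genes on every array, by group (marker shape gives the array number, horizontal bars the mean, error bars the SD, n = 3). For Mki67, Cdk1, Mybl2, Bub1 and Ccnb2 the triangle of array 3 is the highest point of its genotype in both 24 h groups, and for Cdc25b, Pttg1 and Smc4 the 24 h arrays lie below those at 0 h of the same genotype.

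With all arrays in the limma model, in which a gene passed at an adjusted p under 0.05 over all genes tested, activation was followed by no significant increase of any mitotic gene in either genotype. In Cre+ cells 0 of 47 rose and 2 fell, where 10.2% of all genes rose and 10.6% fell. In Cre- cells 0 rose and 1 fell, against 9.44% and 9.14% of all genes (2241 and 2171, or 2867 and 1716 after median centring). At an unadjusted p under 0.05 there were 4 in Cre+ and 3 in Cre- cells, all lower, where 31.3% and 29.9% of all genes lay under it. The spread of the 47 in the activated groups was wide, with a median SD of 1.11 in Cre+ and 1.52 in Cre- cells. For all genes it was 0.172 and 0.177. Mybl2, for one, differed by 1.57 in Cre+ cells (SE 0.72, limma adjusted p = 0.161). The counts therefore do not show a lack of response. The median log2 difference of the 47 was 0.60 in Cre+ and 0.58 in Cre- cells, with 41 of 47 positive in both, against -0.02 and -0.0040 for all genes, of which 46.7% and 49.4% were positive. Without array 3 of both activated groups these medians were -0.05 and -0.21. With array weights 5 rose in Cre+ cells, where 4154 of all 23740 genes did. When Cre- activated array 3 was left out 4 rose, where 3000 of all genes did. Cdc25b fell by 1.46 on the log2 scale in Cre+ cells (SE 0.18, limma adjusted p = 0.000226) and by 0.72 in Cre- cells (SE 0.18, limma adjusted p = 0.0169). Its limma adjusted p in Cre+ cells ran from 1.60e-06 to 0.0019 over the alternative settings. In Cre- cells its call was lost when Cre- baseline array 1 or 2 or Cre- activated array 3 was left out (limma adjusted p between 0.0629 and 0.0687), and when array 3 of both activated groups was (0.0605). Smc4 fell by 0.49 in Cre+ cells (SE 0.12, limma adjusted p = 0.0118), a call lost without Cre+ activated array 3 (0.0532), and differed by -0.29 (SE 0.12, limma adjusted p = 0.115) in Cre- cells.

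Groups without overlap were few. All 3 activated Cre+ arrays were above all Cre+ baseline arrays for 5 genes (Cdk1, Mybl2, Bub1b, Spc25 and Smc2, where 17.4% of all genes were) and below them for 3 (Cdc25b, Pttg1 and Smc4, 19.3%). In Cre- cells Mybl2, Bub1b and Ncaph were above (17.8% of all genes) and the same 3 were below (17.4%).

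Without array 3 of both activated groups, a setting chosen because earlier results of these data showed that these arrays may differ, 3 of 47 genes rose and 7 fell in Cre+ cells, where 10.7% of all genes rose and 10.8% fell. Those arrays were the highest of their group for 44 of 47 genes in both genotypes. Leaving them out therefore lowered most means and narrowed the spread of the same genes that are tested. The p-values of this fit describe activated arrays 1 and 2 only and are not separate support. In Cre+ cells Mybl2 rose by 0.92 on the log2 scale, Cdk1 by 0.72 and Bub1b by 0.65 (SE 0.14, limma adjusted p = 0.00844). Cdc25b fell by 1.42, the cyclin gene Ccnb2 by 0.91, Nusap1 by 0.79, Kif23 by 0.56, Cenpa by 0.52, Mki67 by 0.45 and Smc4 by 0.39. In Cre- cells 0 rose and 7 fell, where 8.46% of all genes rose and 8.23% fell. Ccnb2 fell by 1.05 (limma adjusted p = 0.000433), Mki67 by 0.96 (SE 0.11, limma adjusted p = 0.000223), Nusap1 by 0.80, Kif23 by 0.73, Kif2c by 0.65, Prc1 by 0.59 and Cenpf by 0.48. At an unadjusted p under 0.05 there were 16 of 47 in Cre+ cells, 8 of them higher, and 15 in Cre- cells, none of them higher. Of all genes 31.1% in Cre+ and 27.5% in Cre- cells lay under it (15.3% and 14.3% higher, 15.9% and 13.2% lower). With both directions counted, 16 and 15 of 47 (34% and 31.9%) were near these shares. By direction, 17% of the 47 were lower in Cre+ cells, near the 15.9% of all genes. In Cre- cells 31.9% of the 47 were lower, above the 13.2% of all genes. Mki67, Ccnb2, Kif23 and Nusap1 fell in both genotypes, 4 of the 7 in each. These declines were measured beside a fall, in the same fit, of 12 of 12 B cell markers and 5 of 9 myeloid markers in each genotype. The part of these cells in them was not tested.

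Between the genotypes no mitotic gene passed. At baseline limma called 0 of 47 higher and 0 lower in Cre+ cells (0.505% and 0.059% of all genes tested), with 2 at an unadjusted p under 0.05 (6.9% of all genes) and a median of 0.03, against 0.0018 for all genes. Smc4 was the closest, with a difference of 0.43 (SE 0.12, limma adjusted p = 0.24), and its 3 Cre+ arrays were above the 3 Cre- arrays. It passed in the fit with array weights (0.0472), which called 259 of all genes higher and 71 lower, against 120 and 14 without weights. Without array 3 of both activated groups, which changes only the shared spread here, limma called 0 higher and 0 lower (0.952% and 0.211% of all genes), with 4 at an unadjusted p under 0.05 (9.45% of all genes). Ccnb1 had the largest difference, -0.68 (SE 0.56, limma adjusted p = 0.986), with all Cre+ below all Cre- baseline arrays. Smc4 came next in size, followed by Cdc25c at -0.34, Kif2c at -0.25 and Kif23 at 0.22. No overlap was seen for 2 genes above (Smc4 and Nusap1, 8.82% of all genes) and 3 below (Ccnb1, Cdc25c and Pttg1, 7.43%).

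After activation limma again called 0 of 47 higher and 0 lower in Cre+ cells (0.649% and 0.0969% of all genes tested), with 2 at an unadjusted p under 0.05, both lower (3.44% of all genes), and a median of 0.02 against -0.01 for all genes. Cdc25b differed by -0.52 (SE 0.18, limma adjusted p = 0.399). It passed with array weights, at -0.81, in a fit that called 1321 of all genes higher and 1341 lower, against 154 and 23 without weights. The others of the 5 largest were Tpx2 at 0.40 (SE 0.72), Mybl2 at 0.36, Melk at 0.30 and Ndc80 at -0.34. Ndc80 stood at 6.28, 6.07 and 8.16 in activated Cre+ cells and 6.46, 6.50 and 8.56 in activated Cre- cells, against 6.27, 6.39 and 6.42 in Cre+ baseline and 6.38, 6.54 and 6.54 in Cre- baseline cells. Only Pttg1 had all Cre+ below all Cre- arrays (5.48% of all genes), and none had all Cre+ above (5.28%). The median moved between -0.59 when activated array 3 of the Cre+ group was left out and 0.82 when that of the Cre- group was, so a single array set its sign. Without both it was 0.26, with 42 of 47 positive (47.5% of all genes) and 11 at an unadjusted p under 0.05 (9.27% of all genes), and limma called 0 of 47 higher and 0 lower (0.834% and 0.19% of all genes). Of the activated arrays left in that fit, Cre+ array 1 stood apart. The mean level of the 47 was 5.84 on it, against 5.37 on Cre+ array 2 and 5.37 and 5.36 on Cre- arrays 1 and 2. A single array thus weighed on this median too.

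The activation responses did not differ between the genotypes for any mitotic gene at an adjusted p under 0.05 (0 of 47 higher and 0 lower, 0.00842% and 0% of all genes, 1 at an unadjusted p under 0.05, against 4.68% of all genes, median 0.0025 against -0.02). The differences were -0.74 (SE 0.26, limma adjusted p = 0.912) for Cdc25b, 0.65 for Ccnb1, 0.36 for Mki67, 0.32 for Tpx2 and 0.31 for Cdk1. Without array 3 of both activated groups limma called 0 of 47 higher and 0 lower (0.0295% and 0.00842% of all genes), 6 had an unadjusted p under 0.05 (5.87% of all genes), the median was 0.20, against -0.01 for all genes, and 41 of 47 were positive (47.3% of all genes). Here too Cre+ array 1 stood apart among the activated arrays left. Its median difference from baseline was 0.24, against -0.25 on Cre+ array 2 and -0.22 and -0.21 on Cre- arrays 1 and 2. The SE of the difference was 1.13 for Cdk1 with all arrays and 0.29 without array 3 of both activated groups.

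The other genes of division were read from lists of pathway genes. Of 48 further mitotic genes 2 rose in Cre+ cells and 1 in Cre- cells, and none fell. Of all genes 10.2% rose and 10.6% fell in Cre+ cells, and 9.44% rose and 9.14% fell in Cre- cells. With array 3 of both activated groups left out, 9 rose and 2 fell in Cre+ cells (10.7% and 10.8% of all genes). In Cre- cells 6 rose and 5 fell in that fit (8.46% and 8.23% of all genes). Zwint stood at 7.17, 6.79 and 7.46 in activated Cre+ cells and 6.85, 6.90 and 7.46 in activated Cre- cells, against 6.22, 6.28 and 6.36 in Cre+ baseline and 6.07, 6.15 and 6.12 in Cre- baseline cells. Zwint, a kinetochore gene, rose by 0.85 in Cre+ and 0.95 in Cre- cells, and Dsn1, also of the kinetochore, by 1.28 in Cre+ cells (limma adjusted p = 0.0374). The mean of the 48 was 5.46, 4.97 and 6.68 in activated Cre+ cells and 5.05, 5.0 and 7.08 in activated Cre- cells, against 4.88, 5.07 and 5.02 in Cre+ baseline and 4.99, 4.95 and 4.97 in Cre- baseline cells, so array 3 stood apart here too.

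Genes of DNA replication and the G1/S transition, which act before mitosis, had medians above baseline on every activated array. Of 37, 12 rose in Cre+ and 11 in Cre- cells and none fell, with medians of 1.30 and 1.33 on the log2 scale (10.2% and 9.44% of all genes rose). In the fit without array 3 of both activated groups, 27 rose and 1 fell in Cre+ cells, and 16 rose and 1 fell in Cre- cells, with medians of 0.85 and 0.64 (10.7% and 8.46% of all genes rose). The helicase gene Mcm5 rose by 1.89 in Cre+ and 1.67 in Cre- cells, Mcm2 by 1.47 and 1.46, and Cdk6, a G1 kinase, by 2.13 and 2.17 (limma adjusted p = 3.05e-05 and 3.37e-05). Their median difference from baseline was 1.25, 0.52 and 2.28 on Cre+ arrays 1, 2 and 3 and 0.62, 0.67 and 2.59 on Cre- arrays 1, 2 and 3. All 37 were highest on array 3 in both genotypes, but their medians on arrays 1 and 2 were above baseline, where those of the mitotic genes were not, apart from Cre+ array 1.

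Inhibitors of the cycle and of mitotic entry moved in both directions. Of 12, 3 rose in both genotypes (10.2% of all genes in Cre+ and 9.44% in Cre- cells). In Cre+ cells 3 fell and in Cre- cells 4 (10.6% and 9.14% of all genes). In the fit without array 3 of both activated groups 3 rose in both genotypes, 6 fell in Cre+ and 5 fell in Cre- cells. Of all genes 10.7% rose and 10.8% fell in Cre+, and 8.46% rose and 8.23% fell in Cre- cells in that fit. Cdkn1a, which encodes the CDK inhibitor p21, rose by 4.55 in Cre+ and 3.65 in Cre- cells, the stress gene Gadd45b by 3.0 and 2.23, and Wee1, the kinase that holds CDK1 inactive, by 1.85 and 2.07. The antiproliferative gene Btg2 fell by 1.64 in Cre+ and 1.85 in Cre- cells, and Cdkn2d, a CDK4 and CDK6 inhibitor gene, by 1.08 and 1.03. Cdkn1b stood at 7.16, 8.31 and 6.04 in activated Cre+ cells and 8.39, 7.98 and 5.99 in activated Cre- cells, against 8.65, 8.70 and 8.60 in Cre+ baseline and 8.50, 8.57 and 8.45 in Cre- baseline cells. Cdkn1b, which encodes p27, a CDK inhibitor of resting T cells, was named after its values were seen. It was lowest on array 3 of both activated groups, the arrays on which the mitotic genes were highest, and its activation differences did not pass (-1.48 (SE 0.59, limma adjusted p = 0.104) in Cre+ cells and -1.05 (SE 0.59, limma adjusted p = 0.273) in Cre- cells). The list as a whole was split there. Array 3 was the lowest for 7 of the 12 genes and the highest for 5, Wee1 among them, in each activated group.

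**Figure D5:**
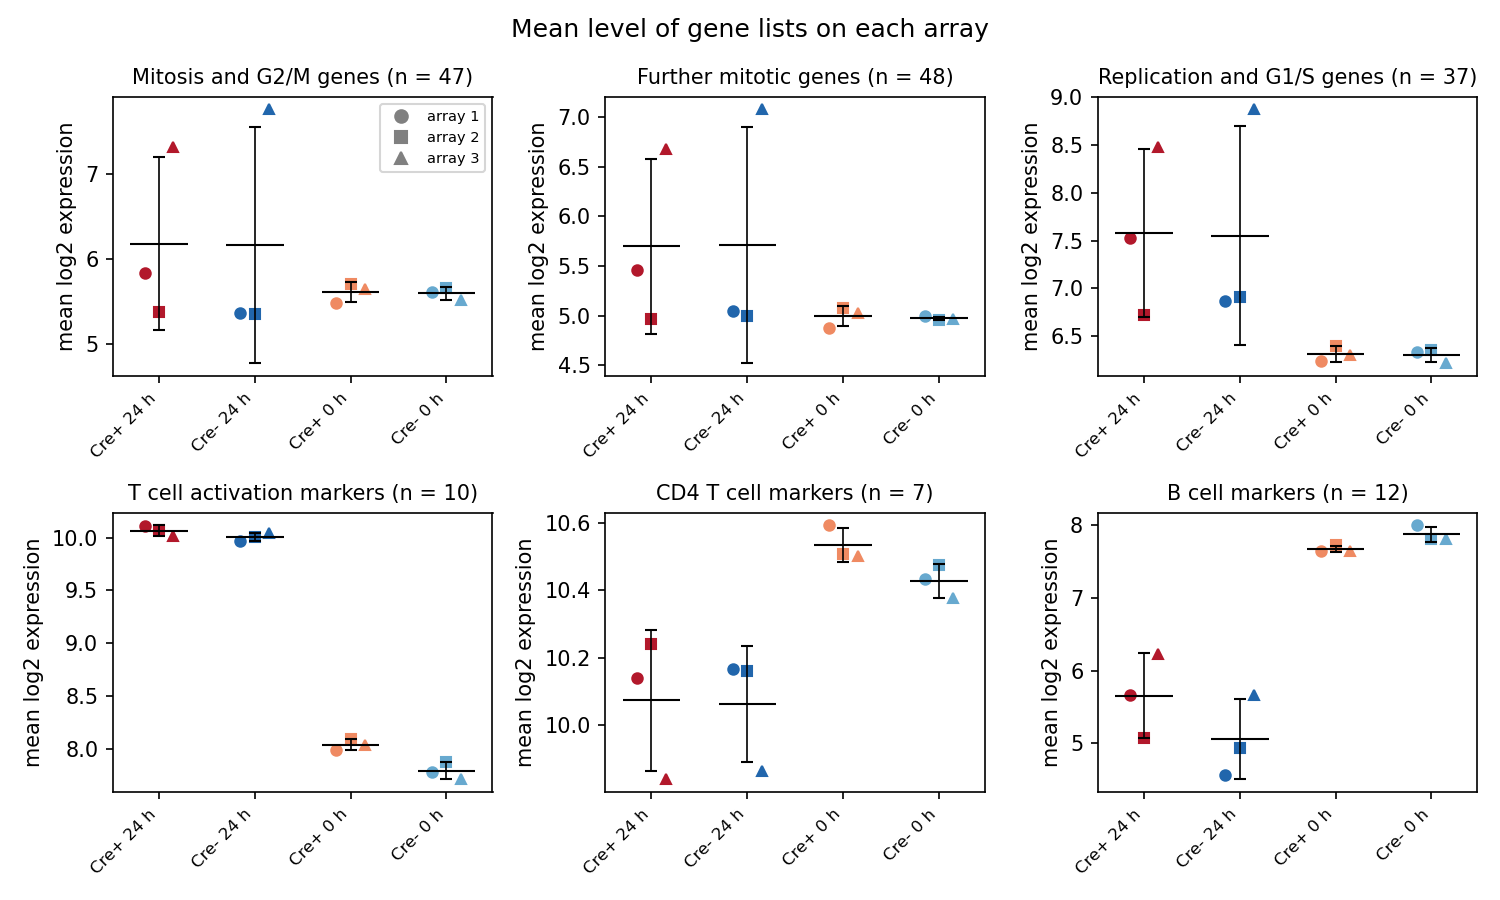
Mean log2 expression of 6 gene lists on each array, by group (marker shape gives the array number, horizontal bars the mean, error bars the SD over 3 arrays). Array 3 is far above the other 24 h arrays for the mitotic and replication lists, the T cell activation markers lie between 9.97 and 10.11 on all 6 of the 24 h arrays, and the B cell markers are lower at 24 h than at 0 h.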

How the data were processed

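RNA of splenic CD4 T cells was measured on 12 arrays, 3 for each genotype and state. The deposited values are log2 expression, 1 per gene, which the authors computed by RMA in the affy package (version 1.36.1, under R 2.15.1), per the submitters' processing notes. RMA fits all arrays together and summarises several probes. Small differences of dim genes may be compressed. For the chip definition, the build and the scan dates, nothing is given in the sources used here. Of 25206 probe sets, 23740 were named by gene ID, 555 of them through RefSeq gene IDs alone, and were tested. No gene was listed for the other 1466, which were not tested.

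All 12 arrays entered a single limma fit (version 3.58.1, under R 4.3.3) with 4 group means and no covariate, which left 8 residual degrees of freedom beside a prior of 3.54. Its 2-sided p-values were adjusted by Benjamini-Hochberg over all genes tested, and a gene passed under 0.05 with no fold minimum. SE is the moderated standard error. The model was tested on simulated data. The number of arrays limits the precision.

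The 47 genes and the other lists, among them the marker lists, were chosen with earlier results of these data known. Values on every array were given for Mki67, for the genes of each role with the largest and smallest mean activation difference, for the 5 with the largest genotype differences and for those that passed in either fit. Of other lists at most 6 that passed were named. Arrays sharing a number were checked for pairing by correlating their deviations from the group means. The same-number correlation of activated Cre+ and Cre- arrays was -0.039, 0.574 and 0.727 for numbers 1, 2 and 3, and of baseline arrays -0.0288, 0.142 and 0.156, so not every pair exceeded 0.1 and the numbers were not treated as pairs. Activated arrays of unlike number ran from -0.709 (Cre- 3 with Cre+ 2) to 0.567 (Cre- 1 with Cre+ 2), so 0.574 did not mark out a shared number. Xist stood at 10.35 at baseline and 2.87 after activation for Cre+ number 1, and at 2.83 and 9.90 for Cre- number 3. Those 2 numbers thus did not mark the same animal in both states. Cre+ numbers 2 and 3 and Cre- numbers 1 and 2 did not differ in sex between the states. Alternatives were a block for the number, robust moderation with a trend, weighted arrays, genes with a mean of at least 5, every probe set, rescaling to the median, by quantiles or to the 75th percentile, a fit of the compared arrays alone, a 2-fold minimum, array 3 of both activated groups left out, and each array left out in turn.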

Additional observations from a re-analysis of the deposited data

How the results depend on the processing

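The replicate number as a block gave the same counts as the fit without it, 0 higher and 2 lower in Cre+ and 0 higher and 1 lower in Cre- cells with activation and 0 elsewhere, with a median of 0.60 and 0.58. Of the counts and medians, 147 of 157 under other settings and 175 of 180 with 1 array left out kept their values within the limits used (1.5 times for counts, 1 SD for medians). That SD was of the mean level of the 47 genes within the groups compared. In the activated groups, array 3 included, it was 1.02 in Cre+ and 1.38 in Cre- cells. Medians that changed sign, such as -0.59 and 0.82 between the activated genotypes, therefore counted as kept, as did counts of 0 that stayed 0. The tally thus does not show that the medians were stable. Between the genotypes, array weights gave 1 gene higher at baseline (259 of all genes) and 2 lower after activation (1341 of all genes). With activation they gave 5 higher in Cre+ (4154 of all genes) and 2 lower in Cre- cells (2970 of all genes). For the difference of responses they gave 1 lower (50 of all genes). A 2-fold minimum left 1 lower in Cre+ and 0 in Cre- cells, where 898 and 847 of all genes were lower. Without array 3 of both activated groups 3 were higher and 7 lower in Cre+ and 7 lower in Cre- cells. With 1 array left out, counts with activation ran from 0 to 4 higher (4 without Cre- activated array 3) and 1 to 2 lower in Cre+ cells, and from 0 to 1 lower in Cre- cells. The median with activation ran from -0.05 to 1.05 in Cre+ and from -0.21 to 1.03 in Cre- cells. Median centring called 2867 genes of all higher and 1716 lower with activation in Cre- cells, against 2241 and 2171 as deposited. Several differences with activation changed sign. With array weights they were -0.12 for Mki67 and Kif23 in Cre+ cells, and in Cre- cells -0.38 for Cenpf, -0.54 for Kif23, -0.49 for Kif2c, -0.34 for Prc1 and -0.71 for Nusap1. Without array 3 of the genotype's activated group, alone or in both genotypes, they were -0.45 for Mki67 and -0.56 for Kif23 in Cre+ cells, and -0.48 for Cenpf, -0.73 for Kif23, -0.65 for Kif2c, -0.59 for Prc1 and -0.80 for Nusap1 in Cre- cells. Median centring gave Mki67 0.043 in Cre- cells. With 1 array left out, differences with activation in Cre+ cells ran from -0.45 to 0.76 for Mki67, from -0.56 to 0.65 for Kif23 and from -0.79 to 0.37 for Nusap1, and in Cre- cells from -0.96 to 0.44 for Mki67, from -0.48 to 0.56 for Cenpf, from -0.73 to 0.76 for Kif23, from -0.65 to 0.96 for Kif2c, from -0.59 to 0.87 for Prc1 and from -0.80 to 0.55 for Nusap1. Between the genotypes after activation, Tpx2 ran from -0.31 to 1.36, Mybl2 from -0.29 to 1.35, Ndc80 from -1.0 to 0.36 and Melk from -0.48 to 1.25. The difference of responses ran from -0.41 to 1.27 for Mki67, from -0.39 to 1.28 for Tpx2 and from -0.46 to 1.39 for Cdk1. The cause of these changes was not tested beyond the arrays left out. The table used holds no detection calls, so which genes lay above background is not known here.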

Other observations

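Regulators of mitotic genes outside the 47 changed in both directions with activation. Of 10 genes of the DREAM and MuvB regulators, which hold mitotic genes silent at rest and switch them on later, 3 rose and 1 fell in Cre+ cells, and 4 rose and 1 fell in Cre- cells. Of all genes 10.2% rose and 10.6% fell in Cre+, and 9.44% rose and 9.14% fell in Cre- cells. Tfdp1 stood at 8.97, 8.07 and 9.50 in activated Cre+ cells and 8.31, 8.41 and 9.76 in activated Cre- cells, against 7.16, 7.11 and 7.30 in Cre+ baseline and 7.07, 7.26 and 7.47 in Cre- baseline cells. Tfdp1, the partner of E2F factors, rose by 1.65 in Cre+ and 1.56 in Cre- cells, E2f5 by 0.75 and 0.74, and E2f4 by 0.65 and 0.63 on the log2 scale. Rbl2 stood at 7.85, 8.47 and 7.56 in activated Cre+ cells and 8.59, 8.47 and 7.44 in activated Cre- cells, against 9.28, 9.28 and 9.21 in Cre+ baseline and 9.20, 9.31 and 9.10 in Cre- baseline cells. Rbl2, which encodes the pocket protein p130 of resting cells, fell by 1.30 in Cre+ and 1.04 in Cre- cells (limma adjusted p = 0.00674 and 0.0237).

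A list of 14 genes held core subunits of the anaphase-promoting complex, its activator gene Fzr1 and the ubiquitin-conjugating enzyme gene Ube2s. The 14 averaged 8.03, 7.86 and 8.18 in activated Cre+ cells and 7.90, 7.89 and 8.26 in activated Cre- cells, against 7.82, 7.82 and 7.78 in Cre+ baseline and 7.73, 7.86 and 7.75 in Cre- baseline cells. Ube2s, which is no core subunit, stood at 9.67, 9.34 and 10.30 in activated Cre+ cells and 9.14, 9.25 and 10.31 in activated Cre- cells, against 8.99, 9.14 and 8.82 in Cre+ baseline and 9.09, 9.23 and 8.72 in Cre- baseline cells. In Cre+ cells 3 rose with activation (10.2% of all genes did), Cdc16 by 0.52, Cdc26 by 0.55 and Cdc27 by 0.38. In Cre- cells limma called 0 (9.44% of all genes rose and 9.14% fell). There 5 had an unadjusted p under 0.05 (35.7%), where 29.9% of all genes lay under it in either direction. All 5 were higher, where 15.2% of all genes were higher at that p.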
